A study of Mus musculus with 6 samples.

Results

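The NF-kappaB system was followed in single macrophages through 10 genes, the 5 subunit genes Nfkb1, Nfkb2, Rel, Rela and Relb, and the 5 inhibitor and feedback genes Nfkbia, Nfkbie, Nfkbiz, Tnfaip3 and Bcl3. They were taken by name and not by a rule on their values, though with earlier results of these data known. All 10 had a row among the 18429 genes of the count matrix. MARS-seq sorts single cells into plates and counts transcripts near their 3′ end by unique molecular identifiers (UMIs), and the study used it to ask how the loss of cohesin changes the response of macrophages to LPS, the bacterial lipopolysaccharide sensed by TLR4. Macrophages had been grown from bone marrow of wild-type and Rad21 lox/lox mice, the latter giving Rad21-/- cells, and were harvested untreated or after 2 h or 8 h in LPS at 10 ng/ml. Mice of both genotypes carried creERT2 on both rosa26 alleles (creERT2/creERT2) and had a mixed background that includes C57BL/6, and the study used adult animals of both sexes. Every culture, wild-type ones included, received 200 nM 4-hydroxy-tamoxifen at 96 h and was used on day 7, so that the floxed alleles (Rad21 lox/lox) of the Rad21-/- cells were deleted in culture by ERt2-Cre, a Cre that tamoxifen sends to the nucleus. RAD21 is a core subunit of the cohesin ring, and these cells had it until Cre was induced.

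Each of the 6 conditions was 1 sample, with 239 wild-type and 270 Rad21-/- cells untreated, 372 cells at 2 h with equal numbers of each genotype, and 257 and 224 cells at 8 h. Nothing in the labels divides a sample into cultures or animals, so no difference below has a replicate check or a test, and all 95% intervals reflect counting error alone. Samples held 1417409 to 2195921 UMIs, with a median of 5577 to 7055.5 per cell and the highest median in Rad21-/- cells at 8 h. Of the 1362 wells, 17 had more than 25000 UMIs, and those of wild-type cells at 2 h held 45.5% of all UMIs of that sample. Levels are therefore given as pooled CPM, the summed UMIs of a gene per 1000000 UMIs, over the other 1345 wells, while shares are the percentage of all cells with at least 1 UMI. Genotype and well barcode cannot be told apart, because wild-type cells used 48 barcodes and Rad21-/- cells 61, with 0 in common. Rad21 itself was found in 25.9%, 26.9% and 18.7% of wild-type cells untreated, at 2 h and at 8 h, and in 2.96%, 6.45% and 5.80% of Rad21-/- cells. Csf1r, Adgre1 and the other macrophage markers, 8 of 8, were detected in every sample, with a summed level of 6214 to 10636 CPM. Lyz2 was the largest part of this sum in every sample (6487 of 9505 CPM in untreated wild-type cells). Mertk was found in only 4.46% to 11.7% of cells. Cd14 was at 629, 1872 and 1936 CPM untreated, at 2 h and at 8 h in wild-type cells. It was lower in Rad21-/- cells, at 139, 502 and 1026. Lyz2, Fcgr1 and Mertk were also lower at each time, while Csf1r and Cd68 were higher. The part of these differences in the genotype results was not tested. Of other lineages, 1 of 4 T cell markers (summed 4.25 to 10.95 CPM), 2 of 5 B cell (23.8 to 180), 2 of 6 neutrophil (0 to 13.3), 2 of 4 dendritic cell (23.6 to 32.6), 1 of 3 mast cell (9.19 to 24.9) and 3 of 4 stromal markers (13.3 to 28.4) could be read. The B cell values were mostly Ighm, which was found in 52.2%, 45.7% and 42.4% of Rad21-/- cells untreated, at 2 h and at 8 h and in 17.2%, 10.8% and 8.56% of wild-type cells, and its part in the genotype results was not tested.

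NF-kappaB is a family of dimeric transcription factors that LPS activates through TLR4 and the IKK kinases. In resting cells the dimers are held in the cytoplasm by IkappaB proteins such as IkappaBα, encoded by Nfkbia, which IKK marks for destruction. Freed dimers of RELA, REL and p50 bind kappaB sites and drive inflammatory genes together with their own inhibitors, so that the signal is followed by feedback. Nfkb1 and Nfkb2 encode the precursors p105 and p100, which are processed to p50 and p52 and act as inhibitors while unprocessed. RELB pairs mainly with p52 in the non-canonical arm. Nfkbiz and Bcl3 encode nuclear IkappaB-like proteins that act on chromatin with p50 or p52, and Tnfaip3 encodes A20, a ubiquitin-editing enzyme that stops signalling upstream of IKK.

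The kappaB motif is shown for members of each role because these genes are known both to serve and to answer this factor. Start-site windows of RefSeq on GRCm38.p6, from 250 bases before to 50 after an annotated start, were given for 7 members, namely Nfkb2, Rel, Rela, Nfkbia, Nfkbie, Tnfaip3 and Bcl3. The kappaB consensus of 10 letters, searched on both strands, was present for 6 of these 7 and had no match in the Rela window. Over all genes with a window, 5.14% of 27025 held it. Each of the 6 lines below gives 30 bases in the direction of the gene's transcription with the matched letters in capitals. They stand at chr12:55492657-55492686 for Nfkbia, chr10:19015403-19015432 for Tnfaip3, chr11:23771042-23771071 for Rel, chr19:46304688-46304717 for Nfkb2, chr17:45555584-45555613 for Nfkbie and chr7:19822734-19822763 for Bcl3, on the minus strand except for Nfkb2 and Nfkbie.
Nfkbia: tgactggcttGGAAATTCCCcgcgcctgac
Tnfaip3: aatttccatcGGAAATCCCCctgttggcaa
Rel: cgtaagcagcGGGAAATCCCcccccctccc
Nfkb2: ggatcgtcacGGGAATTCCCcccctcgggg
Nfkbie: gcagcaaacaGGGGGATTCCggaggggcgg
Bcl3: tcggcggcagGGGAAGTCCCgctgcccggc
The first matched base lay 29 bases before the start in Nfkbia, 12 in Tnfaip3, 92 in Rel and 39 in Nfkb2, farther upstream in Nfkbie, and at position 3 after the start in Bcl3. The runs of Rel and Nfkb2 match on both strands at the same position, since the motif is close to its own reverse complement. Tnfaip3 held another match 125 bases before its start, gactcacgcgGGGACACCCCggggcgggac, and Nfkb2 held further matches in the windows of its 3 annotated starts, among them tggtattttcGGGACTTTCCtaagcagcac, which begins its match 11 bases after the second of these starts. These matches are letters in the reference and do not show binding in these cells.

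All 10 members had higher levels at 2 h of LPS than in untreated cells, in both genotypes. In wild-type cells 7 members were at least 2-fold higher at 2 h, where 3.33% of all 8238 genes with at least 50 UMIs over both samples were, and the median log2 ratio was 2.42 for the members and -0.11 for all genes. With wells of more than 25000 UMIs kept, Nfkb1 (log2 1.40), Nfkb2 (1.36) and Rela (1.24) passed the mark too and the count was 10, and with equal weight per cell it was 9. At 8 h 6 members were at least 2-fold higher, against 7.54% of all genes, with medians of 1.64 and -0.24. In Rad21-/- cells all 10 were at least 2-fold higher at 2 h, against 3.39% of all genes (medians 2.55 and -0.03), and 9 at 8 h, against 6.61% (2.16 and -0.02). No member was 2-fold lower than in untreated cells at either time in either genotype, where 3.08% and 15.4% of all genes were in wild-type cells at 2 h and 8 h, and 1.94% and 5.85% in Rad21-/- cells. The 2 h and 8 h comparisons of a genotype share its untreated sample. The number of members detected in a cell was a median of 1 untreated, 6 at 2 h and 5 at 8 h in wild-type cells, and the same 1, 6 and 5 in Rad21-/- cells. At least 5 members were found in 2.09%, 74.2% and 55.3% of wild-type cells and in 2.59%, 75.8% and 60.3% of Rad21-/- cells. Depth entered these values: at 8 h, where Rad21-/- cells were deeper, the mean number of members per cell was 4.76 in wild-type and 5.13 in Rad21-/- cells as counted, but 3.82 and 3.63 after thinning to 3800 UMIs per cell.

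**Figure D1:**
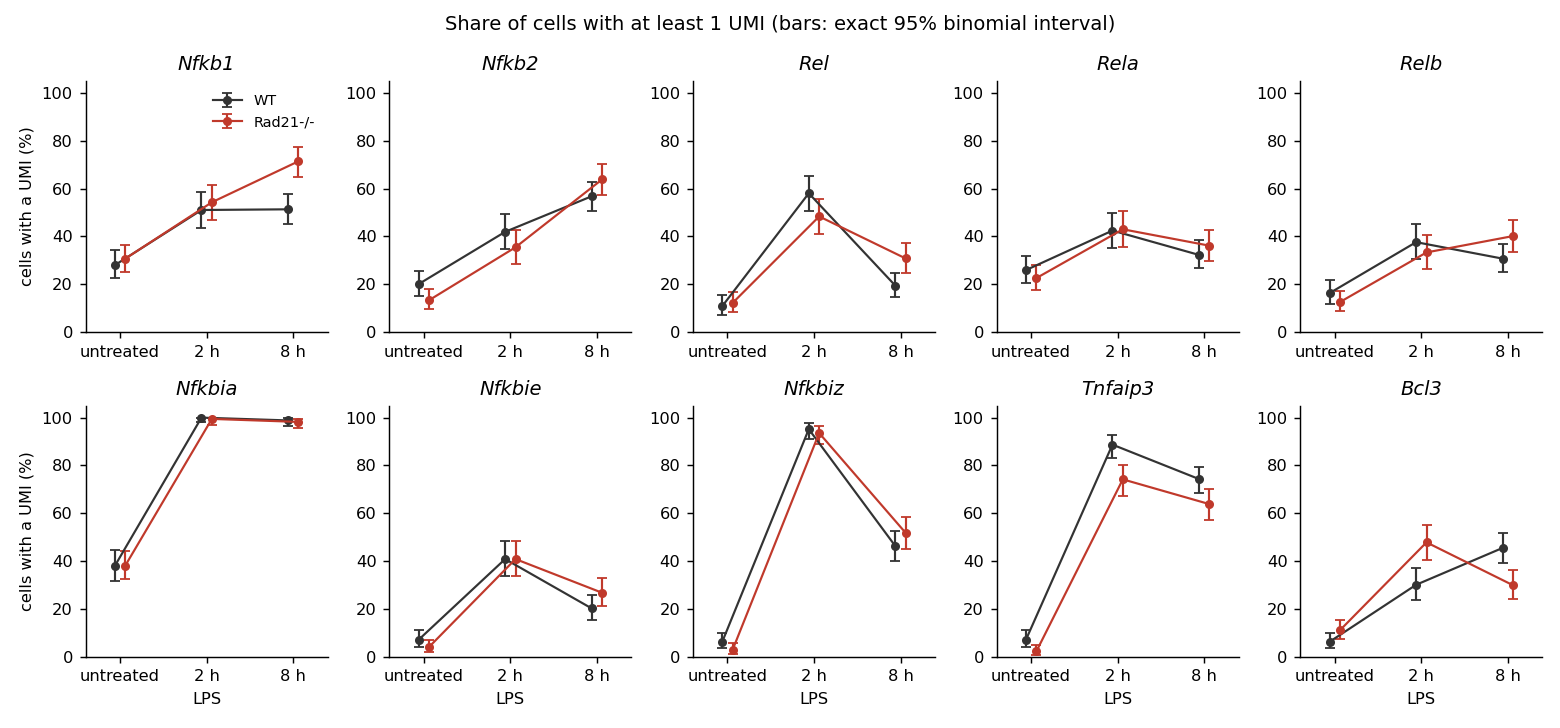
Share of cells with at least 1 UMI (y axis, percent) for each of the 10 genes in untreated cells and at 2 h and 8 h of LPS (x axis), with wild-type in black, Rad21-/- in red and exact 95% binomial intervals as bars. Nfkbia reaches 100% of wild-type cells at 2 h, Nfkbiz and Rel peak at 2 h in both genotypes, and the lines of Bcl3 cross between 2 h and 8 h.

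Among the subunits, Rel, which encodes the transactivating subunit c-Rel, was transient. Untreated, 10.9% of wild-type cells had it (exact interval 7.23 to 15.5), against 58.1% after 2 h (50.6 to 65.2) and 19.5% after 8 h (14.8 to 24.8), and in Rad21-/- cells the shares were 12.2%, 48.4% and 30.8%. Its level was 27.7, 144 and 36.0 CPM in wild-type against 23.7, 128.97 and 50.7 in Rad21-/- cells. The 2 h samples thus stood apart from the other 4, 5.22-fold above untreated in wild-type cells (interval 3.68 to 7.56) and 5.45-fold in Rad21-/- cells (3.82 to 7.94). From 2 h to 8 h the level was 4.01-fold lower in wild-type cells (2.95 to 5.53) and 2.54-fold lower in Rad21-/- cells (1.95 to 3.34). At 8 h wild-type cells were 1.30-fold above untreated with an interval that includes no change (0.851 to 2.00), and Rad21-/- cells 2.14-fold (1.45 to 3.21). This last ratio was under 2-fold without 1 untreated pool of 48 Rad21-/- cells (log2 0.93) and without 1 pool of 44 such cells at 8 h (log2 0.99).

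Nfkb2, the p100 and p52 gene of the non-canonical arm (chromosome 19, 46300994 to 46312400), was higher at each later time. Its level in wild-type cells was 42.2 CPM untreated, 84.3 at 2 h and 161.3 at 8 h, and in Rad21-/- cells 23.7, 70.5 and 162.6. The share of positive cells followed, at 20.1%, 41.9% and 56.8% of wild-type against 13.3%, 35.5% and 63.8% of Rad21-/- cells. The 8 h samples had the highest values in both genotypes. At 8 h the level was 3.82-fold above untreated in wild-type (2.88 to 5.14) and 6.87-fold in Rad21-/- cells (4.90 to 9.86). The wild-type ratio at 2 h, 2.00-fold, lay just under the 2-fold mark, with a log2 of 1.00 and an interval of 0.53 to 1.48, and it was over it without any 1 of 7 pools (log2 1.01 to 1.17).

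Nfkb1, the p105 and p50 gene on chromosome 3 (135584655 to 135691969), had levels of 67.1, 131.95 and 131.1 CPM in wild-type cells and 68.0, 139 and 199 in Rad21-/- cells. Wild-type cells had nearly the same level at 2 h, 1.97-fold above untreated (1.52 to 2.56), and at 8 h, while Rad21-/- cells were higher at 8 h than at 2 h by 1.43-fold (1.19 to 1.72). The 2 h ratio of Rad21-/- cells was 2.05-fold (1.61 to 2.62), and it was under 2-fold without any 1 of 4 pools, the lowest log2 being 0.93 without a 2 h pool of 41 Rad21-/- cells. The wild-type log2 of 0.98 at 2 h and 0.97 at 8 h passed 1 without any 1 of 5 pools at either time. Nfkb1 therefore lies at the 2-fold mark at 2 h in both genotypes and at 8 h in wild-type cells.

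Rela, the main transactivating subunit, and Relb, the partner of p52, were the remaining subunits. Rela stood at 51.9, 83.5 and 64.9 CPM in wild-type and at 39.4, 100.1 and 61.1 in Rad21-/- cells. Relb stood at 33.9, 71.8 and 57.8 in wild-type and at 23.1, 68.1 and 65.7 in Rad21-/- cells. Rela had its highest value at 2 h in both genotypes. Its ratio at 2 h was 1.61-fold in wild-type (1.18 to 2.201) and 2.54-fold in Rad21-/- cells (1.87 to 3.48), and it was the 1 member under 2-fold at 8 h in Rad21-/- cells, at 1.55-fold (1.13 to 2.14). Relb was 2.12-fold up at 2 h in wild-type cells (1.47 to 3.07), with log2 values of 1.00 and 0.93 without 1 untreated pool of 13 and 1 pool of 47 wild-type cells at 2 h. In the Rad21-/- samples Relb was 2.95-fold up at 2 h (1.99 to 4.45) and 2.85-fold at 8 h (1.96 to 4.23).

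The inhibitor gene Nfkbia, on chromosome 12 from 55489409 to 55492647 of GRCm38, was the one member present in nearly every LPS-activated cell. It was found in 38.1% of untreated cells of both genotypes, in 100% and 98.8% of wild-type cells at 2 h and 8 h, and in 99.5% and 98.2% of Rad21-/- cells. Its level was 112 CPM in untreated wild-type cells (95.5 to 130.7), 2273 after 2 h (2189 to 2360) and 1569 after 8 h (1508 to 1633). The Rad21-/- values were 88.0 (74.3 to 104), 1787 (1714 to 1863) and 1099 (1050 to 1149). The 2 h sample was the highest of each genotype, and the level at 2 h was 20.3-fold above untreated in both, with intervals of 17.3 to 23.9 in wild-type and 17.2 to 24.2 in Rad21-/- cells. At 8 h it was 14.0-fold (11.9 to 16.5) and 12.5-fold (10.5 to 14.9) above untreated. The median count per cell, not scaled to depth, was 0, 13 and 9 UMIs in wild-type against 0, 11 and 8 in Rad21-/- cells.

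Nfkbie, which encodes the related inhibitor IkappaBε, was present in fewer cells and was transient. It was found in 7.11%, 40.9% and 20.2% of wild-type and in 4.07%, 40.9% and 26.8% of Rad21-/- cells. Its level was 15.2, 86.02 and 38.6 CPM in wild-type against 6.07, 96.9 and 44.4 in Rad21-/- cells. Both 2 h samples were the highest of their genotype. The ratio of 2 h to untreated was 5.65 in wild-type (3.54 to 9.41) and 15.97 in Rad21-/- cells (8.39 to 34.2), the latter from 10 UMIs in the untreated sample. From 2 h to 8 h the level was 2.23-fold lower in wild-type (1.61 to 3.12) and 2.18-fold lower in Rad21-/- cells (1.63 to 2.94). This Rad21-/- ratio, a log2 of -1.13, was -0.98 without 1 pool of 45 Rad21-/- cells at 2 h and -0.92 without 1 pool of 44 at 8 h.

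Nfkbiz (chromosome 16, 55811375 to 55838954), the nuclear IkappaBζ gene and a primary response gene needed for Il6 and other secondary genes, had the largest LPS ratio of the 10 at 2 h in both genotypes. It was found in 6.28% of untreated wild-type cells, 95.2% at 2 h and 46.3% at 8 h, and in 2.96%, 93.5% and 51.8% of Rad21-/- cells. Its level was 11.1, 638 and 107 CPM in wild-type against 4.85, 524 and 126 in Rad21-/- cells. The 2 h samples were far above the rest in both genotypes. Against untreated, 2 h was 57.6-fold higher in wild-type (35.3 to 101) and 107.9-fold higher in Rad21-/- cells (54.4 to 251), which rest on 16 and 8 untreated UMIs. Without 1 untreated pool the Rad21-/- log2 ratio was 7.42 in place of 6.75 at 2 h and 5.36 in place of 4.69 at 8 h. From 2 h to 8 h the level was 5.95-fold lower in wild-type (5.02 to 7.07) and 4.17-fold lower in Rad21-/- cells (3.57 to 4.88).

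Tnfaip3, the A20 gene on chromosome 10 (19000910 to 19015410), was also high at 8 h. Wild-type cells had it in 7.11% untreated, 88.7% after 2 h (83.3 to 92.9) and 74.3% after 8 h (68.5 to 79.5), against 2.22%, 74.2% (67.3 to 80.3) and 63.8% (57.2 to 70.1) of Rad21-/- cells. Its level was 11.1 CPM (6.33 to 17.98), 423 (387 to 462) and 314 (286 to 343) in wild-type, and 3.64 (1.34 to 7.93), 267 (239 to 297) and 141 (124.1 to 160) in Rad21-/- cells. At each time the wild-type sample was the higher one, and the intervals of the level did not overlap at 2 h or 8 h. Against untreated, 2 h was 38.2-fold higher in wild-type (23.3 to 67.4) and 73.3-fold higher in Rad21-/- cells (33.3 to 201), from 16 and 6 untreated UMIs.

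Bcl3, the other nuclear IkappaB-like gene (chromosome 7, 19808462 to 19822824), had time courses of opposite direction after 2 h. Its wild-type shares were 6.28% untreated (3.55 to 10.1), 30.1% after 2 h (23.6 to 37.2) and 45.5% after 8 h (39.3 to 51.8). The Rad21-/- shares were 11.1% (7.62 to 15.5), 47.8% (40.5 to 55.3) and 29.9% (23.99 to 36.4). Wild-type cells were highest at 8 h, and Rad21-/- cells at 2 h. The level was 10.4, 56.8 and 118 CPM in wild-type against 19.4, 122.6 and 50.7 in Rad21-/- cells. From 2 h to 8 h it was 2.07-fold higher in wild-type (1.56 to 2.78) and 2.42-fold lower in Rad21-/- cells (1.85 to 3.18).

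**Figure D2:**
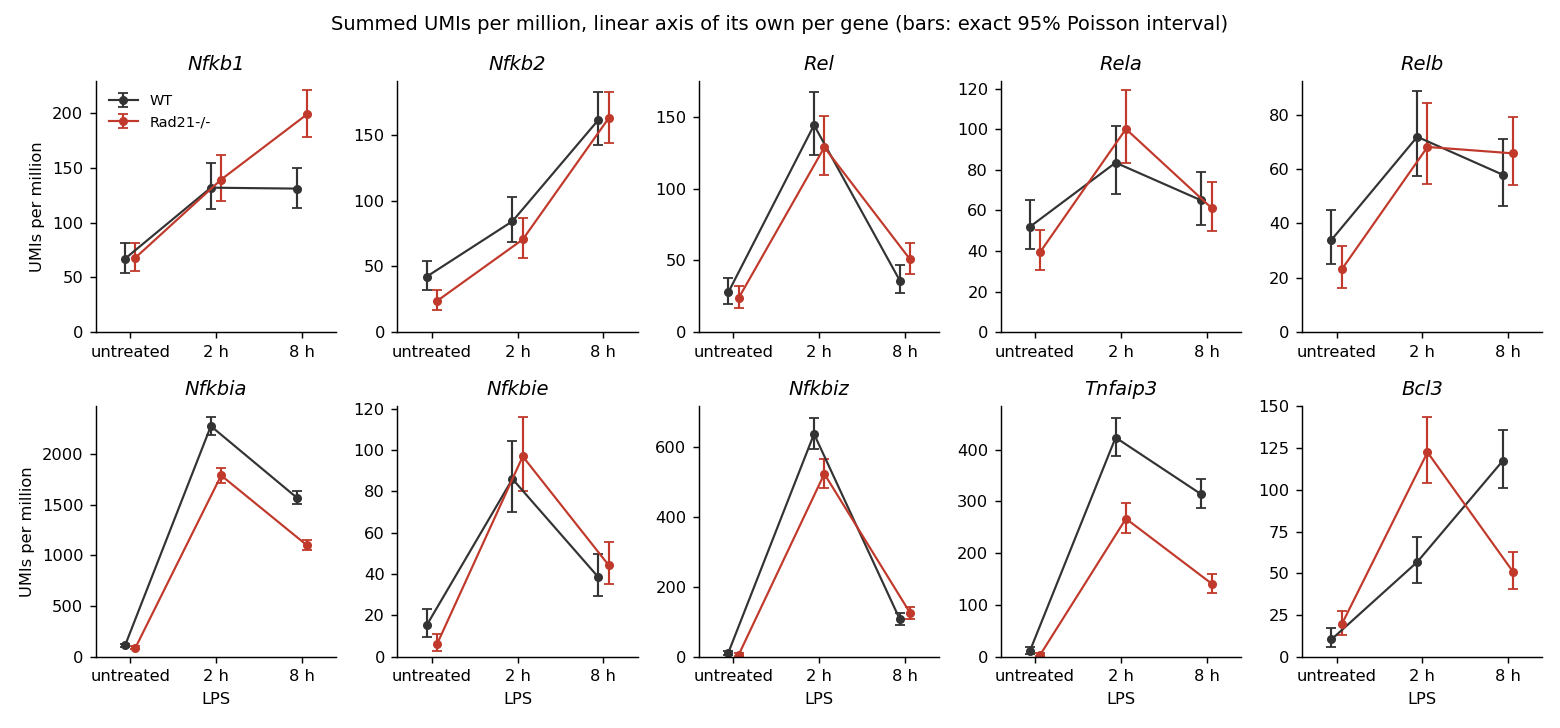
Pooled CPM (y axis, linear, with its own range for each gene) in untreated cells and at 2 h and 8 h of LPS (x axis), wild-type in black and Rad21-/- in red, with exact 95% Poisson intervals as bars, over wells of up to 25000 UMIs. Nfkb2 is highest at 8 h in both genotypes, Tnfaip3 is lower in Rad21-/- cells at 2 h (267 against 423) and 8 h (141 against 314), and Bcl3 goes from 56.8 to 118 between 2 h and 8 h in wild-type but from 122.6 to 50.7 in Rad21-/- cells.

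Between 2 h and 8 h, 1 member was at least 2-fold higher in wild-type cells (Bcl3), where 7.3% of all genes were, and 3 were at least 2-fold lower (Rel, Nfkbie and Nfkbiz), where 9.81% were. The median log2 ratio of the members was -0.40 and that of all genes -0.16. Among the Rad21-/- samples 1 was higher (Nfkb2), against 5.47% of all genes, and 4 were lower (Rel, Nfkbie, Nfkbiz and Bcl3), against 4.56%, with medians of -0.81 and 0.00. These comparisons share the 2 h and 8 h samples with those above. The wild-type call of Bcl3 was close to the limit. Its log2 of 1.05 was 0.98 without 1 pool of 41 wild-type cells at 2 h, 0.98 without 1 pool of 29 at 8 h and 0.99 without 1 pool of 25 at 8 h, and 0.31 with wells of more than 25000 UMIs kept. Nfkb2 in wild-type cells was 1.91-fold higher at 8 h than at 2 h (1.51 to 2.43), and its log2 of 0.94 was 1.11 without 1 pool of 43 wild-type cells at 2 h.

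A higher level over all cells can come from more positive cells or from more transcripts in each positive cell, which the study set out to tell apart. The log2 ratio of the mean CPM of single cells (the same scale within a cell, each cell with equal weight) is the sum of both parts. For 7 of the 10 members the part from CPM per positive cell lay within -0.17 and 0.22 at 2 h in wild-type cells, and the share of positive cells made up the rest: 2.42 of 2.63 for Rel, 2.52 of 2.57 for Nfkbie and 2.26 of 2.34 for Bcl3. Nfkbia, Nfkbiz and Tnfaip3 were the exceptions. Nfkbia had 1.39 from the share, which cannot exceed 100%, and 2.91 from the level per positive cell. Nfkbiz had 3.92 and 2.25, and Tnfaip3 3.64 and 1.72. With Rad21 lost, the same 3 genes at 2 h had 2.92, 2.13 and 0.90 from the level per positive cell, while the other 7 had parts of 0.03 to 0.59, the highest being 0.59 for Rel and 0.58 for Bcl3. Both parts depend on depth, since at a median of 5577 to 7055.5 UMIs a positive cell mostly held 1 or 2 UMIs of a lowly detected gene. For the 7 genes other than Nfkbia, Nfkbiz and Tnfaip3, the median in positive wild-type cells was 1 untreated and at 2 h, or 2 for Rel at 2 h. Their part from CPM per positive cell could therefore hardly move, and the split cannot tell the 2 sources apart for them. The median number in positive cells was 1 for Bcl3 in every sample and 4 and 3 for Nfkbiz at 2 h in wild-type and Rad21-/- cells.

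**Figure D3:**
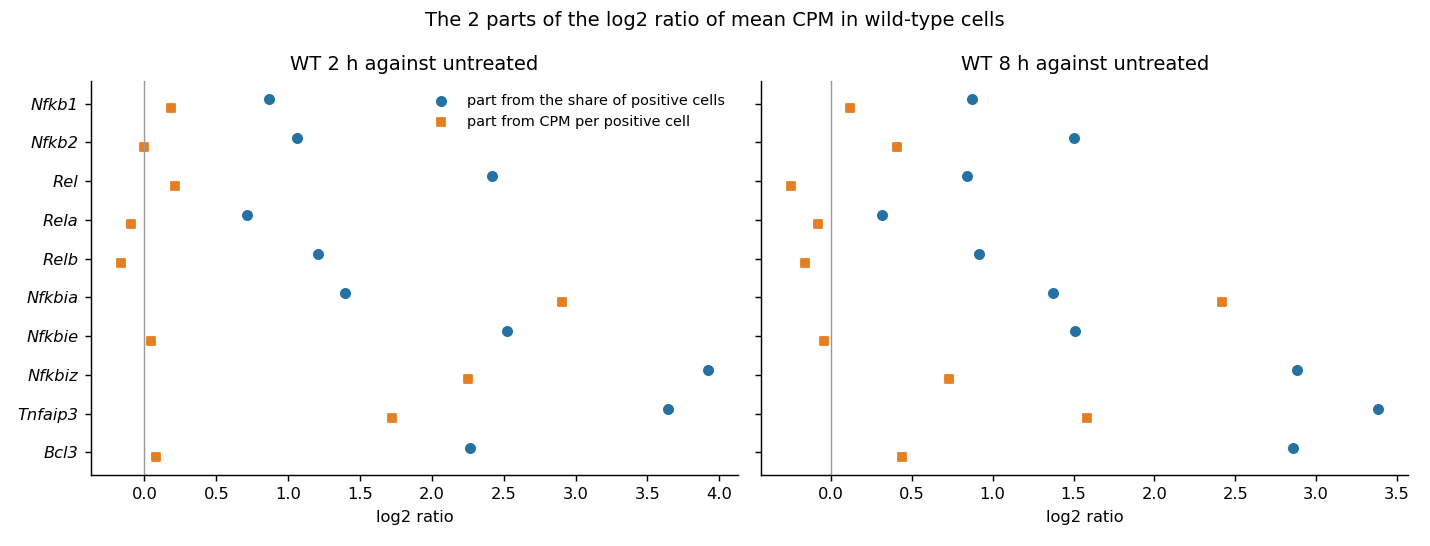
Parts of the log2 ratio of mean CPM (x axis) for each gene (y axis) in wild-type cells at 2 h (left) and 8 h (right) against untreated, with blue circles for the share of positive cells and orange squares for CPM per positive cell. Nfkbia is the gene with the larger part from CPM per positive cell at 2 h (2.91 against 1.39), and Nfkbiz and Tnfaip3 have both parts above 1.5 at 2 h.

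In untreated cells 5 of the 10 members were past 1.5-fold between the genotypes, mostly on few UMIs, and after LPS 2 at 2 h and 3 at 8 h. Untreated, 4 members were at least 1.5-fold lower in Rad21-/- cells (Nfkb2, Nfkbie, Nfkbiz and Tnfaip3), where 12.2% of all 9013 genes were, and 1 was higher (Bcl3), where 6.08% were. These shares are over genes with at least 50 UMIs, which Nfkbie, Nfkbiz, Tnfaip3 and Bcl3 did not reach over both untreated samples, so that of the 6 members that did, 1 was lower (Nfkb2) and 0 were higher. With genes of at least 10 UMIs, 18.1% of all genes were lower and 11.4% higher. At 2 h 1 member was lower (Tnfaip3), against 10.8% of all genes, and 1 higher (Bcl3), against 11.3%. At 8 h 2 were lower (Tnfaip3 and Bcl3), against 10.1%, and 1 higher (Nfkb1), against 22.2%. Counted this way, the members were past 1.5-fold at 2 h and 8 h about as often as all genes. The median log2 ratios over all 10 members were -0.48, -0.12 and 0.10, beside -0.04, 0.04 and 0.20 for all genes.

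Tnfaip3 was lower in Rad21-/- cells at each time. Its level was 3.04-fold lower untreated (1.13 to 9.49), on 16 and 6 UMIs, 1.59-fold lower at 2 h (1.38 to 1.83) and 2.22-fold lower at 8 h (1.90 to 2.60). The cell names carry a code that was read here as the library pool. Of the 24 pools, each of a single time point, 23 held both genotypes, which allows a comparison within a pool. Among the 18 pools that held 10 or more cells per genotype, the level was lower in Rad21-/- cells in 7 of 8 untreated pools, 4 of 4 at 2 h and 6 of 6 at 8 h. At 2 h the 4 pools spanned 382 to 487 CPM in wild-type and 235 to 319 in Rad21-/- cells, and at 8 h the 6 pools spanned 263 to 404 and 110 to 183, so that the genotypes did not overlap at either time. The pools divide the same single samples and are not replicates, and within them genotype and barcode set still cannot be told apart. The share of cells differed by -14.5 percentage points at 2 h and by -10.5 at 8 h. With each cell thinned to 3800 UMIs, which removes the deeper sequencing of the Rad21-/- cells at 8 h, the differences were -21.9 and -20.0 points. Within pools the share was lower in 4 of 4 at 2 h and in 5 of 6 at 8 h.

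Nfkbia was lower in Rad21-/- cells by less. The level was 1.27-fold lower both untreated (1.01 to 1.60) and at 2 h (1.202 to 1.35), and 1.43-fold lower at 8 h (1.35 to 1.52), each under the 1.5-fold mark on this scale. Within pools it was lower in 5 of 8, 4 of 4 and 5 of 6. The log2 difference of -0.35 at 2 h was -0.10 with the wells of more than 25000 UMIs kept, and the -0.51 at 8 h was -0.17 when UMIs were averaged per cell without scaling to the total and -0.72, past the 1.5-fold mark, relative to the median of all genes. Nearly every LPS-activated cell was positive, and the median count per cell was 13 against 11 UMIs at 2 h and 9 against 8 at 8 h. These counts are not scaled to depth. At 8 h the median depth was 5819 UMIs in wild-type and 7055.5 in Rad21-/- cells.

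Bcl3 lay on opposite sides of wild-type at 2 h and 8 h. Its Rad21-/- level was 1.87-fold higher untreated, with an interval that includes no change (0.984 to 3.72), 2.16-fold higher at 2 h (1.61 to 2.92) and 2.32-fold lower at 8 h (1.79 to 3.02). Within pools it was higher in 6 of 8 untreated pools and 4 of 4 at 2 h, and lower in 6 of 6 at 8 h. The share differed by 17.7 points at 2 h and -15.6 at 8 h, and after thinning by 15.8 and -19.0. At 2 h 1 of the 4 pools, of 46 cells of each genotype, had nearly equal shares, 34.8% in wild-type and 32.6% in Rad21-/- cells. The 2 h level difference, a log2 of 1.11, was 0.42 when wells of more than 25000 UMIs were kept. Of the 217 UMIs of Bcl3 in all wild-type wells at 2 h, 68 lay in wells of up to 25000 UMIs.

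**Figure D4:**
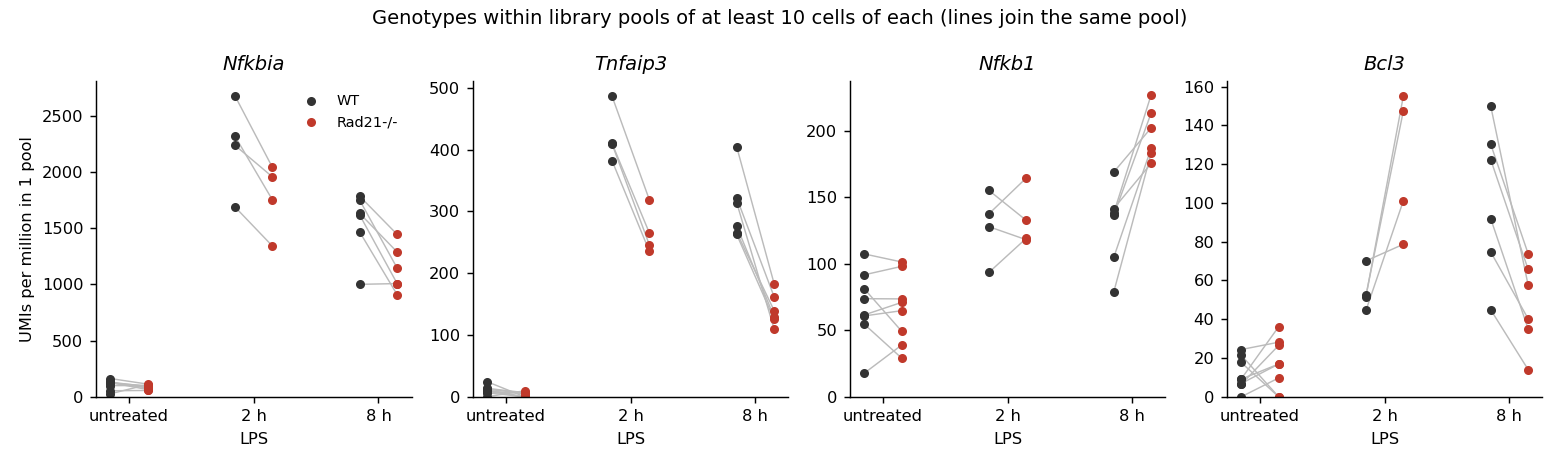
Pooled CPM (y axis) of Nfkbia, Tnfaip3, Nfkb1 and Bcl3 within single library pools with at least 10 cells of each genotype, by time (x axis), with wild-type in black, Rad21-/- in red and a line joining the values of the same pool. Tnfaip3 is lower in Rad21-/- cells in all 4 pools at 2 h and all 6 at 8 h, Nfkb1 is higher in all 6 at 8 h, and Bcl3 is higher in 4 of 4 at 2 h and lower in 6 of 6 at 8 h.

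Nfkb1 was nearly equal in both genotypes untreated and at 2 h (1.01-fold, 0.765 to 1.34, and 1.06-fold, 0.847 to 1.32) and 1.52-fold higher in Rad21-/- cells at 8 h (1.27 to 1.81). It was higher in 6 of 6 pools at 8 h, where the share was 71.4% against 51.4%, or 15.1 points apart after thinning. All genes were shifted the same way at 8 h, by a median log2 of 0.20, and relative to that shift the log2 of Nfkb1 was 0.40 in place of 0.60, under the 1.5-fold mark. It was also under that mark, at 0.58, 0.56 and 0.58, without 1 pool at 8 h of 46, 46 or 17 Rad21-/- cells.

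For the remaining subunits, Nfkb2 was past the 1.5-fold mark in untreated cells and none was after LPS in the reported levels. Nfkb2 was 1.78-fold lower in untreated Rad21-/- cells (1.17 to 2.74), in 6 of 8 pools, and its ratio was 0.836 at 2 h (0.621 to 1.12) and 1.01 at 8 h (0.847 to 1.199). Rel had a ratio of 0.855 untreated (0.536 to 1.36), 0.893 after 2 h (0.716 to 1.11) and 1.41 after 8 h (0.997 to 2.01). Its share at 8 h was higher in 6 of 6 pools, but the difference of 11.3 points became 3.69 after thinning, and without 1 pool of 44 Rad21-/- cells the log2 of 0.50 was 0.65. Rela and Relb had intervals that include no change at all 3 times, with ratios of 0.760, 1.199 and 0.941 for Rela and 0.680, 0.948 and 1.14 for Relb. The untreated log2 of Relb, -0.56, passed the 1.5-fold mark without either of 2 pools (-0.66 in both cases).

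Nfkbie and Nfkbiz were lower in untreated Rad21-/- cells, by 2.51-fold (1.14 to 5.93) and 2.28-fold (0.921 to 6.15), from at most 22 UMIs in a sample. After LPS they were close to wild-type. Nfkbie had ratios of 1.13 at 2 h (0.859 to 1.48) and 1.15 at 8 h (0.811 to 1.64). Nfkbiz was 1.22-fold lower at 2 h (1.096 to 1.35), in 4 of 4 pools, and had a ratio of 1.17 at 8 h (0.953 to 1.44).

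**Figure D5:**
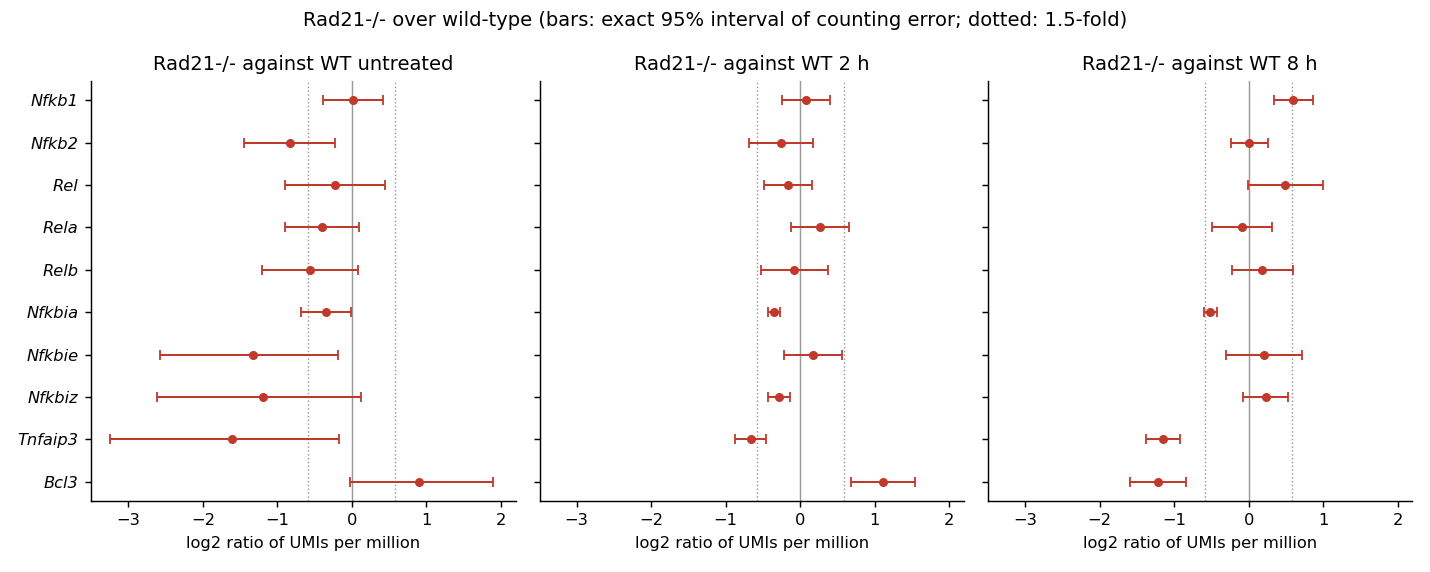
Log2 ratio of pooled CPM, Rad21-/- over wild-type (x axis), for each gene (y axis) in untreated cells, at 2 h and at 8 h, with exact 95% intervals of counting error as bars and dotted lines at 1.5-fold. Tnfaip3 lies left of 0 at all 3 times (-1.60, -0.67 and -1.15), and Bcl3 lies right of 0 at 2 h (1.11) and left of it at 8 h (-1.21).

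Other genes of the pathway were read from a list of 28, all of them in the matrix. The list held the remaining IkappaB genes, IKK and TAK1 kinase subunits, A20 partners, deubiquitinases, TRAF adaptors and regulators of the non-canonical arm. It also held Ripk1 and the feedback genes Zc3h12a and Irak3. In wild-type cells at 2 h, 6 of the 18 with at least 50 UMIs were at least 2-fold higher and 0 lower (3.33% and 3.08% of all genes), and at 8 h 8 of 20 were higher and 0 lower (7.54% and 15.4%). With Rad21 lost, 7 of 18 were higher at 2 h (3.39% of all genes) and 9 of 22 at 8 h (6.61%), again with 0 lower (1.94% and 5.85%). Zc3h12a, which encodes the mRNA-cleaving Regnase-1, was at 6.23, 107.7 and 102 CPM untreated, at 2 h and at 8 h in wild-type and at 7.28, 110.5 and 79.0 in Rad21-/- cells. Tnip3, an A20-binding inhibitor, was higher still at 8 h, with 55.4, 353 and 1510 in wild-type against 23.7, 451 and 684 in Rad21-/- cells. Irak3, which encodes the kinase brake IRAK-M, was a late gene, at 9.69, 7.52 and 95.8 in wild-type against 7.28, 10.4 and 94.5 in Rad21-/- cells. Birc3, a ubiquitin ligase of the TNF receptor complexes, was 5.04-fold higher at 2 h in wild-type cells and 7.19-fold higher in Rad21-/- cells. In Rad21-/- cells Nfkbid, which encodes the nuclear protein IkappaBNS, was at 3.64, 85.7 and 6.34, and Traf1, an adaptor of TNF receptors, at 9.71, 55.3 and 216. Traf1 was also at least 2-fold above untreated in wild-type cells at 2 h and at 8 h.

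By genotype, the pathway genes past 1.5-fold were 0 higher and 1 lower of 18 untreated (Tnip3), 2 higher (Nfkbid and Ikbkb) and 1 lower (Traf1) of 18 at 2 h, and 1 higher (Traf3) and 4 lower of 21 at 8 h. Of all genes, 6.08% were higher and 12.2% lower untreated, 11.3% and 10.8% at 2 h, and 22.2% and 10.1% at 8 h, so that the counts were at or below the share of all genes except for the 4 lower at 8 h. The list held 6 A20 partners, of which Tnip1, Tnip2, Tnip3 and Tax1bp1 were the 4 lower genes at 8 h. Itch was at 48.2 in wild-type against 54.2 CPM in Rad21-/- cells, and Rnf11 at 55.9 against 58.8, and the group as such was not tested. Tax1bp1 was at 353 CPM in wild-type and 152 in Rad21-/- cells, a log2 of -1.21 (-1.43 to -0.999), and Tnip3 had a log2 of -1.14 (-1.24 to -1.04). Tnip1 had a log2 of -0.82 (-1.05 to -0.60), and Tnip2, named for completeness after its values were seen, had -0.67 on 30 and 21 UMIs with an interval that includes 0 (-1.55 to 0.18). Nfkbid was at 32.6 in wild-type and 85.7 in Rad21-/- cells at 2 h, a log2 of 1.40 (0.85 to 1.96).

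Genes with a time course like that of each member were sought among 3050 genes with at least 500 UMIs, by Pearson's r of log2 (CPM + 1) over the 6 samples. These r values describe 6 points that share 3 time points and have no test. The closest gene was Plaur, the urokinase receptor gene, for both Nfkbia and Tnfaip3 (r = 0.998 and 0.995), and Tnfaip2, named for its induction by TNF, for both Nfkbie and Nfkbiz (0.992 and 0.998). It was Nrp2 for Nfkb1 (0.98), the chemokine gene Ccl5 for Nfkb2 (0.99), the activation marker gene Cd83 for Rel (0.99), Gm37988 for Rela (0.98), the chemokine gene Cxcl2 for Relb (0.99) and Cebpd for Bcl3 (0.98). Plaur was at 20.1, 114.4 and 84.8 CPM untreated, at 2 h and at 8 h in wild-type and at 15.8, 94.5 and 67.4 in Rad21-/- cells. Cebpd, which encodes a C/EBP transcription factor, was at 62.96, 150 and 205 in wild-type against 66.8, 236 and 160 in Rad21-/- cells. It was highest at 8 h in wild-type and at 2 h in Rad21-/- cells, like Bcl3. Cebpd was picked for its likeness to Bcl3 in these samples, so this order is no separate result. Among the members themselves r ran from 0.35 between Nfkb2 and Rel to 0.99 between Nfkbia and Tnfaip3. From 7 genes for Rela to 45 for Nfkb2 had an r of at least 0.95, so a high value over 6 samples does not single out a gene. From cell to cell within a sample, the 45 pairs of members had Spearman correlations between -0.14 and 0.22 after thinning, too weak in mostly sparse counts to be read as a relation. Nfkbia, Nfkbiz and Tnfaip3 were less sparse at 2 h. In wild-type cells Nfkbia had 0.02 with Nfkbiz and 0.10 with Tnfaip3, and Nfkbiz had -0.02 with Tnfaip3. The same pairs had 0.18, 0.11 and 0.16 in Rad21-/- cells at 2 h.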

How the data were processed

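Macrophages were sorted as single cells, and their MARS-seq libraries were made in pools of wells. The authors removed poly(T) sequence, mapped reads to GRCm38.p4 (per the labels and the study's methods) with GEMTools, discarded wells by spike-in share, mapped share and total reads, kept unambiguous reads and collapsed them by UMI. The deposited values are raw UMI counts, not normalized by the authors. Cell names gave the sample and a code that was read as the pool, and 0 columns were left unassigned. The bulk and imaging experiments of the study were not analysed here.

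Shares carry exact Clopper-Pearson intervals, summed UMIs exact Poisson intervals, and ratios of 2 sums exact conditional binomial intervals, all at 95%. Molecular identifiers do not make cells replicates, so these cover counting error only. Sums were scaled to CPM over wells of up to 25000 UMIs, and no doublet caller was run on the sorted cells. Genes needed 50 UMIs over both samples to enter the background, and a gene was counted past 2-fold for LPS or 1.5-fold between genotypes. Thinning used the hypergeometric probability of at least 1 UMI at a depth of 3800 UMIs, reached by at least 80% of the cells in each sample, and of 5500, reached by at least 50%. Cells below the depth were left out of all thinned values. Members, the pathway list, the marker lists, the limits and the alternatives were chosen with earlier results of these data known. The genes named are the 10 members, Rad21, up to 3 pathway genes per direction and comparison with the largest ratio past the fold, and for each member the gene with the highest r. Promoter sequences came from RefSeq (GRCm38.p6), which also gave positions. Nfkb1, Nfkb2 and Bcl3 overlap other annotated genes, none of which is counted in the matrix. Alternatives were all wells, equal weight per cell, UMIs per cell without scaling, thinning at either depth, centring on the median of all genes, at least 2 UMIs per positive cell, at least 10 UMIs per gene, stricter folds, within-pool differences and leaving out each pool. Python 3.11.15, numpy 2.4.6, pandas 2.3.3, scipy 1.17.1 and matplotlib 3.10.9 were used, and the steps were tested on simulated data.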

Additional observations from a re-analysis of the deposited data

Results flagged for a closer look

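Bcl3 moved in opposite directions from 2 h to 8 h of LPS in the genotypes, with a log2 ratio of 1.05 in wild-type and -1.27 in Rad21-/- cells. The same 4 samples gave a log2 ratio of Rad21-/- over wild-type of 1.11 at 2 h and -1.21 at 8 h. Each condition was 1 sample, so the difference between these effects was not tested. Within pools the level of Bcl3 was higher in Rad21-/- cells in 4 of 4 pools at 2 h and lower in 6 of 6 at 8 h. With wells of more than 25000 UMIs kept, the wild-type ratio of 8 h over 2 h was 0.31 and the genotype ratio at 2 h was 0.42, while the genotype ratio at 8 h was -1.21.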

How the results depend on the processing

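Genotypes could be compared within pools, but no paired test over replicates was possible because the labels give 1 sample per genotype and time point. Over the members and comparisons, 1714 of the alternative log2 ratios of a member were within counting error of the reported value and 26 moved beyond it. Leaving out 1 pool, which keeps most cells and so can move a value little, gave 1197 of the 1714 and 3 of the 26. Of the 26, 1 changed side, that of Nfkb1 between genotypes at 2 h. It was 0.08 and became -0.31 with wells of more than 25000 UMIs kept. Of the alternative differences in share, 1512 moved by less than counting error, 1200 of them from leaving out 1 pool, and 78 moved by more. With at least 2 UMIs required per positive cell, 43 moved by more and 47 by less. With thinning to 3800 UMIs, 29 moved by more and 61 by less. With 2 UMIs required, the untreated share differences of Nfkbiz and Tnfaip3 between genotypes turned from lower to slightly higher in Rad21-/- cells. Of the alternative counts of members past the fold, 341 were within 1.5 times the reported count and 25 were not. Leaving out 1 pool gave 232 of the 341 and 8 of the 25. With wells of more than 25000 UMIs kept, the count of members higher was 0 in place of 1 for wild-type 8 h against 2 h (Bcl3), for Rad21-/- against wild-type at 2 h (Bcl3) and for Rad21-/- against wild-type at 8 h (Nfkb1). For wild-type 8 h against 2 h, that count was also 0 with equal weight per cell, 0 without scaling, and 2 with thinning to 3800 UMIs or centring on the median of all genes. For Rad21-/- against wild-type at 8 h it was 2 without scaling and 0 with centring. With stricter folds of 3 for LPS and 2 between genotypes, members higher were 0 in place of 1 for wild-type 8 h against 2 h, 6 in place of 10 for Rad21-/- 2 h against untreated, 5 in place of 9 for Rad21-/- 8 h against untreated and 0 in place of 1 for Rad21-/- 8 h against 2 h. With these folds, members lower were 1 in place of 4 for Rad21-/- 8 h against 2 h and 0 in place of 1 for Rad21-/- against wild-type at 2 h, and members higher were 0 in place of 1 for Rad21-/- against wild-type untreated and at 8 h. Leaving out 1 pool at a time gave 0 to 2 members higher both for wild-type 8 h against 2 h and for Rad21-/- against wild-type at 8 h. A background filter of 10 UMIs in place of 50 raised the share of all genes past the fold, for example from 3.33% to 5.59% for wild-type 2 h against untreated, higher. Why these counts moved was not tested, except that stricter folds can only lower a count.

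Depth limits the untreated values most. Nfkbie, Nfkbiz, Tnfaip3 and Bcl3 had at most 32 UMIs in an untreated sample, so their LPS ratios have wide intervals. The ratio of Tnfaip3 between genotypes ranged over the 6 other settings of level and scaling from -1.63 to -1.19 untreated, from -0.82 to -0.59 at 2 h and from -1.35 to -0.81 at 8 h on the log2 scale. Genotype and barcode set cannot be told apart, and each time point has its own pools, so that pool and time cannot be told apart either.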
